A study of Mus musculus with 3 samples.

Results

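The lysosome genes were a set of 36 genes, out of 27998 in the count tables, that encode proteases, glycosidases, lipid-handling proteins, membrane proteins and regulators of the lysosome. The set was given by name. All 36 were found in the files. Their unique molecular identifiers (UMIs, 1 per captured transcript) were summed per library over all cells of a class and expressed as counts per 1000000 UMIs of that class (CPM), gene by gene and as a sum. The cells came from kidneys of mice with folic acid (FA)-induced injury, digested whole with collagenase and profiled by 10x Genomics 3′ single-cell RNA sequencing on day 14. The mice were 6 to 8 weeks old per the labels, and all of them had received FA. One genotype was a global knock-out of Aoah, the gene of acyloxyacyl hydrolase, a lipase that removes acyl chains from lipopolysaccharide, and it had 2 libraries (Aoah-/- mouse 2 and Aoah-/- mouse 3). The other was wild type, with 1 library (WT mouse 3), so the spread among WT mice is not known and genotypes were compared without a test.

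The lysosome is the acidic compartment in which cells break down proteins, glycans and lipids taken up by endocytosis or delivered by autophagy. Proximal tubule (PT) cells depend on it to degrade protein filtered by the glomerulus, and macrophages to digest engulfed cells and microbes. Transcription factors of the MiT/TFE family, among them TFEB, which is encoded by the member Tfeb, act on many lysosomal genes at once through a short promoter motif, the E-box CACGTG and its flanks.

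The libraries held 167222984, 161015021 and 158551992 UMIs (in the order Aoah-/- mouse 2, Aoah-/- mouse 3, WT mouse 3, an order kept in every set of 3 values). After filtering, 21368, 19692 and 18202 cells were kept, with a median of 3357, 3678 and 3859 UMIs. Aoah-/- mouse 3 stood apart in that its barcodes started at 1672 UMIs, against 500 in the other libraries, so that it holds few cells of low depth. Each pair of libraries shared 109 to 117 barcodes among kept cells, at most 0.621% of a library. Aoah itself was at 6.75, 6.19 and 18.2 CPM over all kept cells, and at 4.16, 5.09 and 24.4 in C1q macrophage-like cells. The gap was narrower in PT cells, at 14.8, 11.6 and 26.8 in S1/S2-like and 13.3, 13.7 and 30.5 in S3-like cells (classes named below). The libraries labelled Aoah-/- were thus lower, but not at 0, and because the place of the deletion relative to the 3′ tags is not given in the sources used here, these tags do not check the genotype. The 36 members together took 0.693%, 0.683% and 0.564% of all UMIs.

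Cell classes were named from marker genes, with the lysosome genes kept out of the clustering. Myeloid cells were C1q macrophage-like (1333, 871 and 1478 cells), Ly6c2 monocyte-like (340, 351 and 243), neutrophil-like (774, 559 and 203), conventional dendritic cell (cDC) 1-like (55, 61 and 52), cDC2-like (292, 241 and 296) and plasmacytoid dendritic-like (79, 87 and 66). PT cells were S1/S2-like, the early and middle segments (2907, 2203 and 2629), S3-like, the late segment (2290, 2011 and 3215), and injured PT-like, led by Ccl2, Vcam1 and Sox9 (221, 409 and 142). These 9 classes had at least 30 cells in every library and were compared between genotypes. A further 2758, 536 and 3346 PT cells, whose segment the markers did not set, are described apart. Gpnmb macrophage-like (70, 115 and 26), peritoneal-like macrophage (1291, 13 and 69) and migratory dendritic-like cells (35, 23 and 32) had too few in at least 1 library and are given as values. Doublets were kept.

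Of the 36 members, 31 had a RefSeq promoter window (GRCm38.p6, 250 bases before to 50 after a transcription start), and 9 of these (29.0%) held CACGTG in at least 1 window, searched on both strands. The share over all 27025 symbols with a window was 8.09%. With 1 flanking base added, the motif TCACGTG, which contains CACGTG, was in the windows of 8 members (25.8%) and of 4.29% of all symbols. The 9 members were Ctsa, Ctsd, Ctsl, Lgmn, Gaa, Gla, Glb1, Lamp1 and Mcoln1, and of 60 further lysosome genes with a window 18 (30%) held CACGTG. A match is a description of these letters only. The windows printed are those of Lamp1 with 4 matches, Ctsd with 2, Lgmn with 1 and Gla with 2. Levels of these genes in neutrophil-like cells come up again below, where Gla was not 1.5-fold above WT in both Aoah-/- libraries. Another window of Lgmn held 0 matches and is not printed. Psap and Lipa, which also come up there, held 0 matches, and Ctsb and Npc1 had no window. The printed windows run 5′ to 3′ on the strand of the gene, with CACGTG and, where it was found, its TCACGTG flank in capitals.
Lamp1 (chr8:13158911-13159210, plus strand): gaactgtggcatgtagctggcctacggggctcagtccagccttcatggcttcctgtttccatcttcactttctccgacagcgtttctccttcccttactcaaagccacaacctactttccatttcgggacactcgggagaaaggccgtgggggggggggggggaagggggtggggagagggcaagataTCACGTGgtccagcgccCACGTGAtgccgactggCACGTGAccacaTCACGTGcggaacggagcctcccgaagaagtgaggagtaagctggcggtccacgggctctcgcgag
Ctsd (chr7:142387778-142388077, minus strand): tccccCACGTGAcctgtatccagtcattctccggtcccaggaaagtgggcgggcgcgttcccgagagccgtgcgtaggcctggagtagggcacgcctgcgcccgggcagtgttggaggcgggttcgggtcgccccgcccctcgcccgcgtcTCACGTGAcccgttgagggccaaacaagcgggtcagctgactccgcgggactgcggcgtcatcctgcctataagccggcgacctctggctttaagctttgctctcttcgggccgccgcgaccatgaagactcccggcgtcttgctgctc
Lgmn (chr12:102439043-102439342, minus strand): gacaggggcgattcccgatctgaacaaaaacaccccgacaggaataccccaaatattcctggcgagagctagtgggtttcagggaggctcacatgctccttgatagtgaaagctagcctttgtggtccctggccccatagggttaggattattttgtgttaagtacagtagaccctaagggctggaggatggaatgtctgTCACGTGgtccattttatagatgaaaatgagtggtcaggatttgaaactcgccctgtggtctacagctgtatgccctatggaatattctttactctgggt
Gla (chrX:134600956-134601255, minus strand): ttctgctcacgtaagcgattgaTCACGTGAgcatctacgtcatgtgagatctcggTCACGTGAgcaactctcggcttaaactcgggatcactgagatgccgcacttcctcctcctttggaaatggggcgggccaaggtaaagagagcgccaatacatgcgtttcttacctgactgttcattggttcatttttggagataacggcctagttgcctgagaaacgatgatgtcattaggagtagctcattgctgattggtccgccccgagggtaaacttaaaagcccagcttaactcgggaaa

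RNA of the 36 lysosome genes took a larger share of the UMIs of macrophages than of PT cells. The summed level was highest in Gpnmb macrophage-like cells, at 22042, 33051 and 22744 CPM, followed by peritoneal-like macrophages at 15799.6, 16634 and 13342. C1q macrophage-like cells had 13942, 14405 and 11718, plasmacytoid dendritic-like cells 11924, 12606 and 11897 and Ly6c2 monocyte-like cells 11670.2, 11382 and 10818. Dendritic cells and neutrophils lay lower, at 9065, 8774 and 7314 in cDC1-like, 8128, 8212 and 7841 in cDC2-like and 9173, 9232 and 6080.2 in neutrophil-like cells. PT S1/S2-like cells had 8439, 8127 and 6719.6, injured PT-like cells 8212, 7562 and 7896 and PT S3-like cells 6343, 5991 and 5575. The exact Poisson 95% interval, which covers counting error only, was narrow for these sums, for instance 5848 to 6319.7 in the 203 WT neutrophil-like cells. In 11 classes outside the myeloid and PT cells, among them endothelial, tubular and lymphoid classes, the sums lay between 2863 and 6977.

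**Figure D1:**
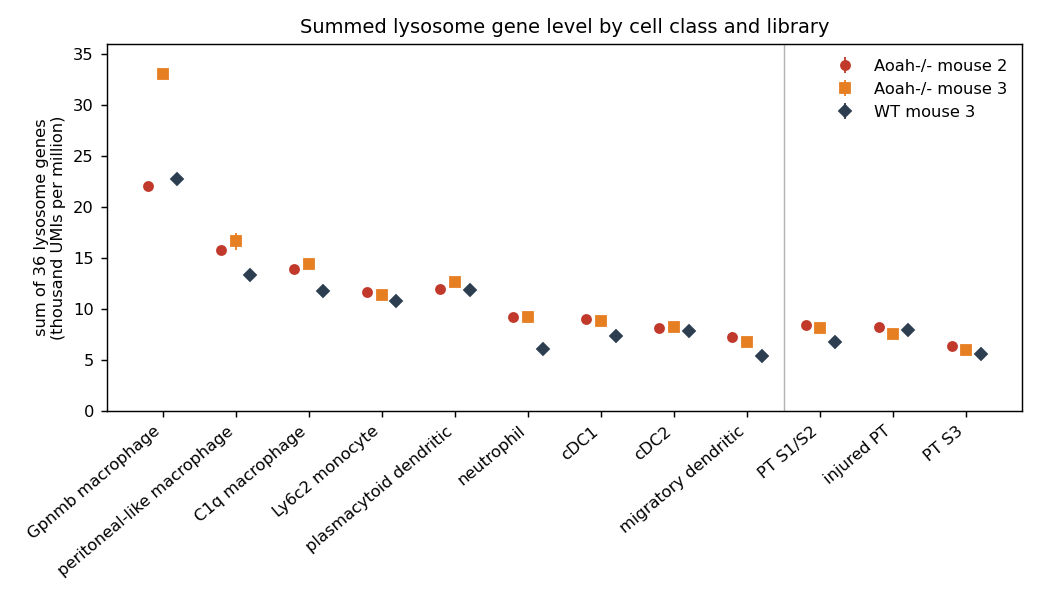
Sum of the 36 lysosome genes (CPM divided by 1000, linear axis from 0) in each cell class, with 1 point per library and exact Poisson 95% intervals, most of which are smaller than the points. Myeloid classes are left of the grey line and PT classes right of it. Gpnmb macrophage-like cells were highest in every library, and in neutrophil-like and PT S1/S2-like cells both Aoah-/- points lie above the WT point.

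Within each library the C1q macrophage-like sum exceeded that of PT S1/S2-like cells by a log2 ratio of 0.78 (SD 0.05) over the 3 libraries. The sum hid opposite patterns of its members. Of 32 members above the level filter (a mean of 20 CPM and 30 UMIs in all), 18 were at least 1.5-fold higher in C1q macrophage-like cells in all 3 libraries and 10 were at least 1.5-fold lower, where 26.3% and 34.0% of all genes were. Members all but absent from PT S1/S2-like cells were Ctsc, dipeptidyl peptidase 1, at 6.94, 4.9 and 2.35 CPM, Cd68, the classic macrophage lysosome glycoprotein, at 2.19, 3.03 and 1.88, and Laptm5, a membrane protein of blood cells, at 8.36, 5.7 and 3.34. On the other side stood Arsb, arylsulfatase B, with a log2 ratio of -3.49 (SD 0.17), Neu1, the lysosomal sialidase, with -2.23 (SD 0.11), and Ctsl, a cysteine protease, with -1.82 (SD 0.06). Cd63, a tetraspanin of late endosomes, was also higher in PT S1/S2-like cells, at 1276, 1321 and 1087 CPM against 533, 465 and 431 in C1q macrophage-like cells. Mitochondrial UMIs made up 16.9% to 32.6% of the UMIs in the subclusters of PT S1/S2-like cells and 6.46% to 23.6% in those of C1q macrophage-like cells. With mitochondrial UMIs left out of the total, the log2 ratio of the sums was 0.49. A wider list of 79 further lysosome genes, described below, had a log2 ratio of 0.45 (SD 0.07) for its sum. Of its 56 genes above the filter, 15 were at least 1.5-fold higher and 21 lower, where 26.3% and 34.0% of all genes were.

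**Figure D2:**
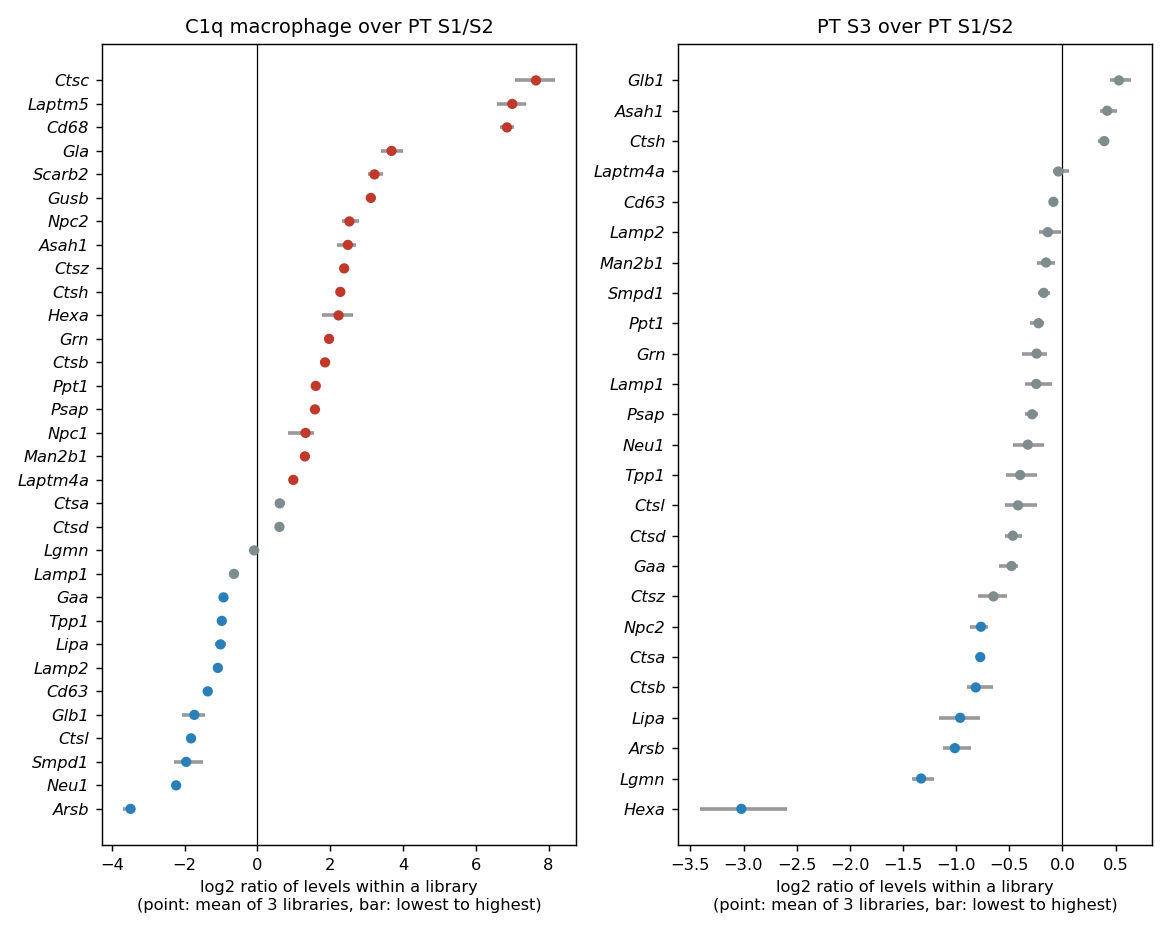
Log2 ratio of the level of each member between 2 classes within a library, for C1q macrophage-like over PT S1/S2-like cells (left, 32 members) and PT S3-like over PT S1/S2-like cells (right, 25 members). Points are means of 3 libraries and bars run from the lowest to the highest library, with red for members at least 1.5-fold higher and blue for those at least 1.5-fold lower in all 3 libraries. Ctsc, Laptm5 and Cd68 sit at the macrophage end, Arsb at the PT S1/S2 end, and Hexa is the member furthest below 0 in PT S3-like cells.

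Among the 11 proteases, the cathepsins divided the classes. The highest class is given here among the 9 compared classes, and since 3′ UMIs count molecules they need no division by gene length. Ctsb, a cysteine cathepsin with both endo- and exopeptidase activity, was at 1496, 1771 and 1130.0 in C1q macrophage-like cells and 1303, 1374 and 1207 in plasmacytoid dendritic-like cells. Ctsd, the main aspartic protease, was highest in neutrophil-like cells among the 9 compared classes, at 1476, 1506 and 916, at least 2-fold above the next class in every library. Ctsc had its peak in C1q macrophage-like cells, at 1079.6, 1232 and 963, again at least 2-fold above the next class. Ctsl was highest in plasmacytoid dendritic-like cells, at 1279, 1725 and 1452, where Ctsh, an aminopeptidase, also peaked, at 888, 938 and 972. Lgmn, the asparaginyl endopeptidase legumain, was a gene of PT S1/S2-like cells, at 776, 674 and 517, and of C1q macrophage-like cells, at 688, 665 and 489.7. Of the carboxypeptidase genes, Ctsz was highest in C1q macrophage-like cells, at 906, 911 and 891, and Ctsa was at 329, 340.5 and 265 there and at 310.2, 296 and 282 in Ly6c2 monocyte-like cells. Tpp1, tripeptidyl peptidase 1, peaked in PT S1/S2-like cells, at 185, 187 and 161. Ctse and Ctsk, the collagen-degrading cathepsin of osteoclasts, were below 20 CPM on average in each of the 9 compared classes, whereas Ctsk reached 5.99, 118 and 211 in Gpnmb macrophage-like cells.

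The 8 glycosidase and sulfatase genes lay at lower levels than the main cathepsins. Gla, alpha-galactosidase A, was highest in neutrophil-like cells, at 180.1, 223 and 149, more than 2-fold above any other compared class in every library. Hexa, the alpha subunit of beta-hexosaminidase, was led by C1q macrophage-like cells, at 276, 299 and 254. PT cells led for Neu1, at 415, 434 and 397 in S1/S2-like cells, for Gaa, the acid alpha-glucosidase, at 52.3, 48.4 and 39.6, and for Glb1, beta-galactosidase, at 96.6, 102 and 87.9 in S3-like cells. Arsb reached 188, 159 and 128 in PT S1/S2-like and 164, 177 and 79.8 in cDC1-like cells. Man2b1, an alpha-mannosidase, was highest in cDC1-like cells, at 308, 262 and 244, and Gusb, beta-glucuronidase, was at 129, 144 and 129.6 there and at 137, 145 and 122 in C1q macrophage-like cells, values whose order differed between libraries.

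Of the 7 lipid-handling genes, Psap, the precursor of the saposins that activate sphingolipid hydrolases, had the most UMIs of any member in C1q macrophage-, Ly6c2 monocyte-, cDC1-, cDC2- and plasmacytoid dendritic-like cells. It reached 3893, 3508 and 2705 CPM in cDC1-like cells, 3051, 2845 and 2533 in Ly6c2 monocyte-like cells, 2649.5, 2535 and 2318 in plasmacytoid dendritic-like cells and 2078, 2035 and 1814 in cDC2-like cells. Ppt1, palmitoyl-protein thioesterase 1, marked cDC1-like cells, at 1057, 1269 and 967, at least 6.40-fold above any other compared class, and was at 60.7, 71.1 and 53.8 in cDC2-like cells. Npc1 and Npc2, which pass cholesterol out of the lysosome, did not share a pattern. Npc1 was highest in plasmacytoid dendritic-like cells, at 199.8, 251 and 253, and Npc2 in Ly6c2 monocyte- and C1q macrophage-like cells, at 981, 1011 and 868 and 891, 908 and 905. Lipa, the acid lipase, peaked in PT S1/S2-like cells, at 269.7, 281 and 267. Asah1, acid ceramidase, was at 177, 214 and 185 in C1q macrophage-like cells, and Smpd1, acid sphingomyelinase, was a low gene at 31.4, 42.8 and 38.1 in injured PT-like and 31.4, 35.4 and 30.1 in PT S1/S2-like cells.

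In PT S1/S2-like cells membrane proteins, at 2935, 3010.4 and 2378 CPM in sum, and proteases, at 3058, 2857 and 2405, took similar shares. Cd63, Lamp1 and Ctsl had the most UMIs of the members in PT S1/S2- and injured PT-like cells, and Cd63, Lamp1 and Lamp2 in PT S3-like cells. Lamp1, a main glycoprotein of the lysosomal membrane, was at 844, 866 and 629 in PT S1/S2-like, 691, 678 and 587 in PT S3-like and 536, 520.3 and 429.6 in C1q macrophage-like cells. Lamp2, its relative with a role in autophagy, was at 665, 669 and 539.7 in PT S1/S2-like and 569.9, 592 and 534 in PT S3-like cells. Cd63 was highest in injured PT-like cells, at 1541, 1412 and 1583, where Ctsl stood at 1057, 947 and 1045. Laptm5 had its highest compared level in Ly6c2 monocyte-like cells, at 1196, 1176 and 1203. In cDC2-like cells it was at 1115, 998 and 941, second in both Aoah-/- libraries but not in WT, where the second class had 1013. Laptm4a, its broadly expressed relative, also peaked in Ly6c2 monocyte-like cells, at 315, 323 and 312. Cd68 was led by C1q macrophage-like cells, at 368, 409 and 379, and Scarb2, an integral protein of the lysosomal membrane, by plasmacytoid dendritic-like cells, at 122, 126 and 129.6. Of the remaining 3 genes, Grn, progranulin, was highest in plasmacytoid dendritic-like cells, at 1272, 1217 and 1072, at least 2.88-fold above the next class. Tfeb was low, at 78.4, 56.1 and 47.2 in neutrophil-like and 46.5, 57.9 and 44.4 in Ly6c2 monocyte-like cells, and Mcoln1, the calcium channel TRPML1, was at 20.7, 20.2 and 16.3 in PT S1/S2-like cells. In all, 25 of the 36 members had the same highest class in all 3 libraries, of which 6 in PT S1/S2-like and 5 in plasmacytoid dendritic-like cells. These counts are given without a share over all genes.

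**Figure D3:**
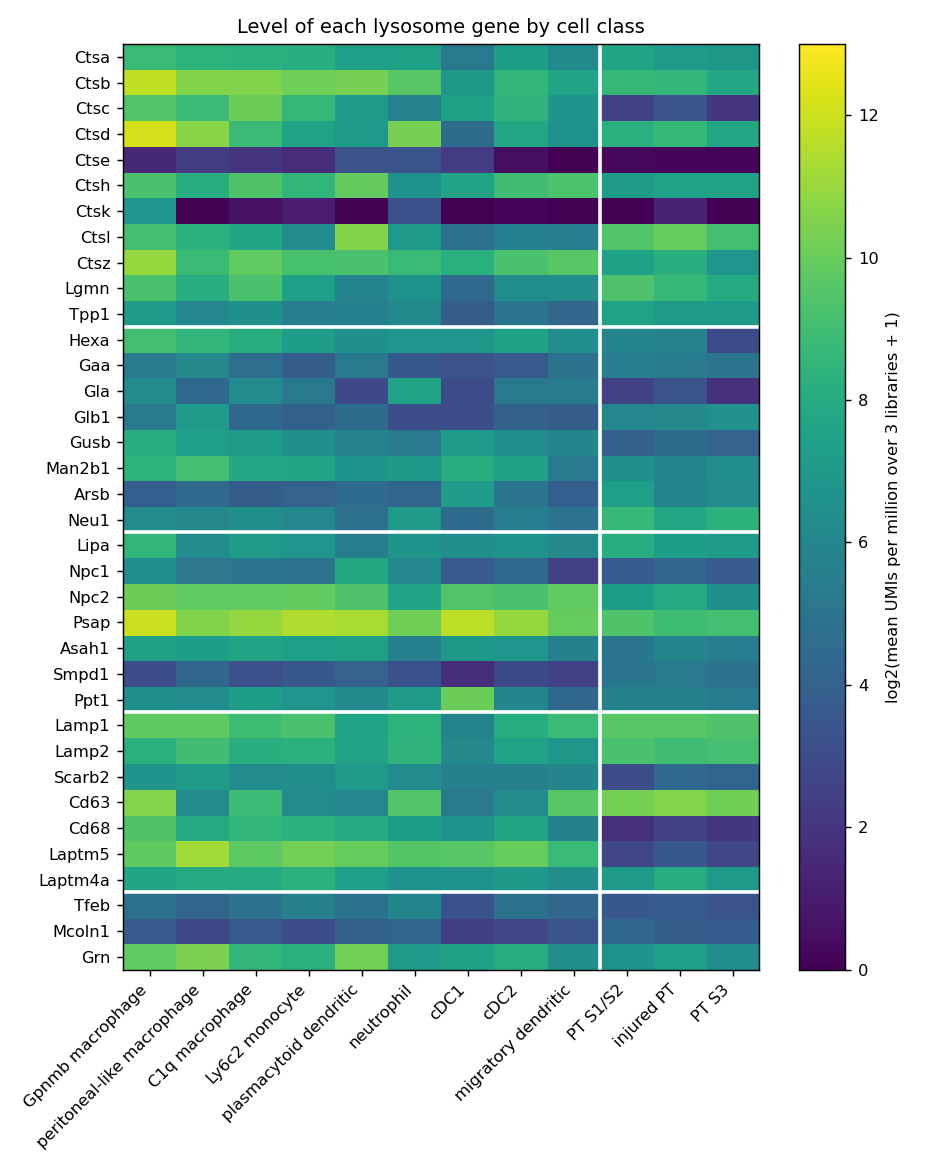
Level of the 36 members (rows, grouped by role) in 12 cell classes (columns), as log2 of the mean CPM over the 3 libraries plus 1. White lines separate roles and, at the right, PT classes from myeloid classes. Ctsc, Cd68 and Laptm5 are dark in PT classes, Ppt1 is brightest in cDC1-like cells, and Ctsd and Psap are bright in Gpnmb macrophage-like cells.

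Gpnmb macrophage-like cells, with Mmp12, Gpnmb, Fabp5 and the lipid receptor gene Trem2 among their leading genes, carried 1.92 times the summed level of C1q macrophage-like cells, with a log2 ratio of 0.94 (SD 0.27). Of 32 members above the filter, 14 were at least 1.5-fold higher in all 3 libraries and 0 lower, where 11.7% and 6.27% of all genes were. Ctsd led, at 3536, 7435 and 2991 against 527, 497 and 384 CPM. Psap stood at 3589, 4844 and 3474 and Ctsb at 2842, 4822 and 2592. Lipa had a log2 ratio of 1.39 (SD 0.11), Cd63 1.68 (SD 0.46), Grn 1.22 (SD 0.23) and Npc1 1.20 (SD 0.10). The class held 26 WT cells, and its cells were deep, with a median of 10286, 11944 and 15735 UMIs.

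Monocyte-like cells lay closer to C1q macrophage-like cells, with a log2 ratio of 0.24 (SD 0.11) for C1q macrophage-like over Ly6c2 monocyte-like sums. Here 8 of 29 members were at least 1.5-fold higher in the macrophages and 0 lower, where 7.65% and 22.3% of all genes were. The 8 were Ctsc, Ctsd, Ctsh, Ctsl, Lgmn, Hexa, Gla and Cd63, with Cd63 at a log2 ratio of 2.64 (SD 0.20) and Lgmn at 1.90 (SD 0.29). The 2 conventional dendritic classes had like sums, with a log2 ratio of 0.05 (SD 0.13), from different genes. Of 28 members, 3 were higher in cDC1-like cells (Gusb, Arsb and Ppt1) and 13 lower, where 5.68% and 12.3% of all genes were. The log2 ratio was 4.13 (SD 0.02) for Ppt1, and among the lower members it was -3.29 (SD 0.87) for Ctsd and -2.25 (SD 0.37) for Lamp1.

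Along the proximal tubule the late segment carried less RNA of the 36 members than the early and middle segments. The log2 ratio of the sum was -0.37 (SD 0.09). Of 25 members above the level filter, 0 were at least 1.5-fold higher in PT S3-like cells and 7 were lower, where 5.5% and 5.34% of all genes were. Hexa showed the widest gap, at 12.5, 6.36 and 2.88 CPM against 80.01, 60.5 and 40.3 in PT S1/S2-like cells. Lgmn followed with a log2 ratio of -1.33 (SD 0.11), then Arsb with -1.01 (SD 0.14), Lipa with -0.96 (SD 0.20), Ctsb with -0.82 (SD 0.14), Ctsa with -0.77 (SD 0.04) and Npc2 with -0.77 (SD 0.09). Among members below the filter, Gla was lower in PT S3-like cells, with a log2 ratio of -0.78 (SD 0.05). Scarb2, also below it, was higher, with 1.13 (SD 0.08), and past 1.5-fold in every library. Glb1 was higher as well, at 96.6, 102 and 87.9 in PT S3-like and 70.5, 71.8 and 55.9 in PT S1/S2-like cells, without reaching 1.5-fold in every library. So was the sum of the wider list of 79 further lysosome genes, with a log2 ratio of 0.11 (SD 0.02). Of its 51 genes above the filter, 3 were at least 1.5-fold higher and 2 lower, where 5.5% and 5.34% of all genes were.

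Injured PT-like cells had nearly the same sum as PT S1/S2-like cells, with a log2 ratio of 0.03 (SD 0.18) that spread over both signs among libraries. Of 25 members, 4 were at least 1.5-fold higher in injured cells (Ctsz, Asah1, Laptm4a and Grn) and 3 lower (Arsb, Neu1 and Lipa), where 25.9% and 6.7% of all genes were. Laptm4a was at 237, 281 and 281 in injured and 131, 138 and 113 in PT S1/S2-like cells. Arsb was at 70.4, 57.2 and 47.9 in injured cells, a log2 ratio of -1.42 (SD 0.03), and Neu1 at 246, 204 and 248.

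Between genotypes, the summed level of the members lay above WT in both Aoah-/- libraries in 8 of the 9 compared classes. The largest difference was in neutrophil-like cells, with a log2 ratio of the mean Aoah-/- level to the WT level of 0.60 (SD 0.01), where the SD is that of the ratios of the 2 Aoah-/- libraries. It was 0.30 (SD 0.04) in PT S1/S2-like, 0.29 (SD 0.03) in cDC1-like and 0.27 (SD 0.03) in C1q macrophage-like cells. Smaller values were found, of 0.15 (SD 0.06) in PT S3-like, 0.09 (SD 0.03) in Ly6c2 monocyte-like, 0.06 (SD 0.01) in cDC2-like and 0.04 (SD 0.06) in plasmacytoid dendritic-like cells. In the last of these classes Aoah-/- mouse 2 was all but equal to WT, at 11924 against 11897 CPM with overlapping Poisson intervals. A higher sum did not mean that most members were higher. In plasmacytoid dendritic-like cells 9 of 30 members above the level filter lay above WT in both Aoah-/- libraries. There 14 lay below WT in both, where 32.4% and 38.7% of all genes lay above and below. In injured PT-like cells the 2 Aoah-/- libraries fell on either side of WT, and the ratio was 0.00 (SD 0.08). The sums of cells outside the myeloid and PT classes moved as well, above WT in both Aoah-/- libraries in 9 of 11 classes, with a median log2 ratio of 0.15. The highest of these, 0.63, was in erythroid cells, which held 21974, 37998 and 31406 CPM of 10 PT marker genes and 350263, 144839 and 397746 of erythroid marker genes. The part of either in the difference was not tested. In erythroid cells 10 of 27 members were at least 1.5-fold above WT in both Aoah-/- libraries and 0 below. Of all 3813 genes above the filter there, 364 and 23 were. In natural killer cells the counts were 6 and 0 of 25 members, and 281 and 132 of all 5279 genes.

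**Figure D4:**
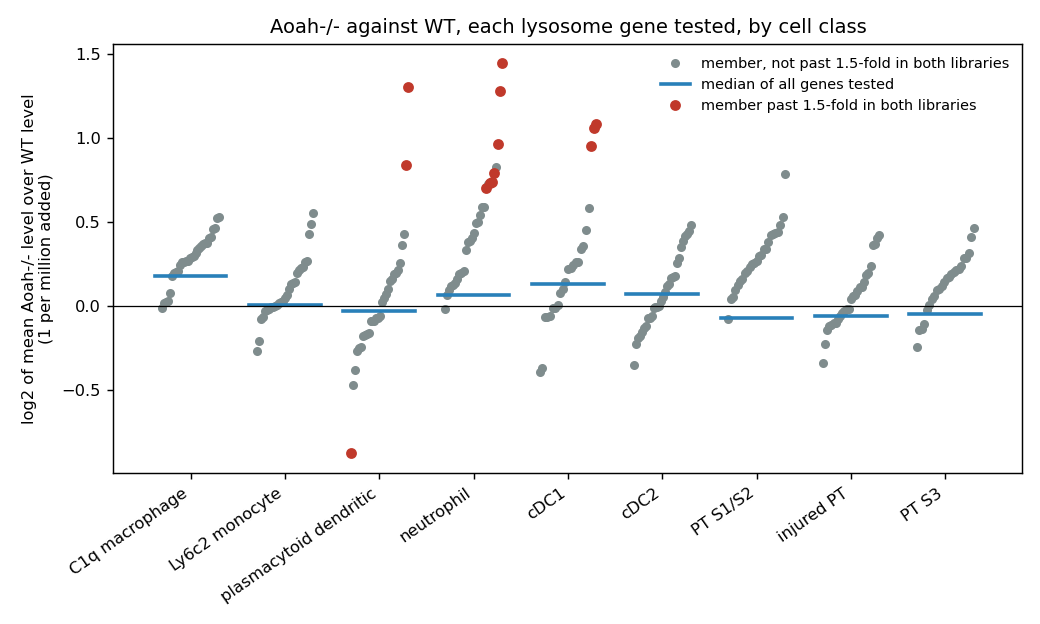
Log2 ratio of the mean Aoah-/- level to the WT level (1 CPM added) for each member above the level filter, in the 9 compared classes, sorted within a class. Red points are members at least 1.5-fold apart from WT in both Aoah-/- libraries, grey points the others, and blue lines the median of all genes tested in that class. Of the 13 red points, 7 are in neutrophil-like cells, and in PT S1/S2-like cells 24 of 25 points lie above 0 although the median of all genes lies below it.

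Over these classes, 247 pairs of a member and a class passed the level filter, with 16 members passing in all 9 classes and Ctse, Ctsk and Mcoln1 in none. A member counted as past the fold when both Aoah-/- libraries lay at least 1.5-fold on the same side of WT, which was so for 12 pairs above and 1 below. In neutrophil-like cells 7 of 29 members were past it above WT and 0 below, where 9.78% and 2.79% of all genes were. The counts were 0 and 0 of 30 in C1q macrophage-like cells (all genes 3.72% and 0.409%), 0 and 0 of 29 in Ly6c2 monocyte-like cells (2.44% and 1.19%) and 0 and 0 of 30 in cDC2-like cells (2.11% and 0.521%). They were 3 and 0 of 23 in cDC1-like cells (10.7% and 1.9%) and 2 and 1 of 30 in plasmacytoid dendritic-like cells (6.16% and 3.85%). In PT cells they were 0 and 0 of 25 in S1/S2-like (1.12% and 0.979%), 0 and 0 of 24 in S3-like (0.856% and 0.877%) and 0 and 0 of 27 in injured cells (1.22% and 1.08%).

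In neutrophil-like cells the difference was largest for proteases, whose summed level had a log2 ratio of 0.75 (SD 0.01), and for lipid-handling genes, with 0.75 (SD 0.04). It was 0.38 (SD 0.04) for membrane proteins and 0.32 (SD 0.07) for glycosidases and the sulfatase. Ctsb was at 986, 999 and 408 CPM, with a Poisson interval of 349.8 to 474 in WT and 933 to 1041 in the nearest Aoah-/- library. Both Aoah-/- libraries were thus more than 2-fold above WT, a log2 ratio of 1.28 (SD 0.01). Lgmn, which cleaves cathepsins during their maturation, was at 133, 114 and 44.8, a log2 ratio of 1.45 (SD 0.16), although its WT value rested on 19 UMIs. Psap was at 1419.7, 1335 and 706, a log2 ratio of 0.96 (SD 0.06). Ctsd was at 1476, 1506 and 916, a log2 ratio of 0.70 (SD 0.02), and Lamp1 at 404, 383 and 227, a log2 ratio of 0.79 (SD 0.05). For these 5 genes, named because they were past the fold, the intervals of the WT library and of either Aoah-/- library did not overlap. The intervals cover counting error only, and the count is given without a share over all genes. Lipa was at 128, 118 and 73.2, with an interval of 49.7 to 104 in WT against 101 to 138 in Aoah-/- mouse 3, so that these overlap. Npc1 was at 71.6, 78.7 and 44.8, and its intervals overlapped, 27.00 to 70.03 in WT against 57.9 to 87.5 in Aoah-/- mouse 2.

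Most other members in neutrophil-like cells leaned the same way without reaching the fold. In total 26 of 29 lay above WT in both Aoah-/- libraries and 0 below, where 45.9% and 33.2% of all genes did. Cd63 was at 769, 823 and 545, Cd68 at 158, 202 and 109 and Grn at 144, 142 and 94.4. Man2b1, at 124, 119 and 123, Laptm5, at 723, 782 and 718, and Tpp1, at 66.3, 80.1 and 68.4, lay close to WT. The C1q genes C1qa, C1qb and C1qc, which mark macrophages, summed to 319, 398 and 137 CPM in this class. That was 2.66, 2.91 and 1.12% of their level in C1q macrophage-like cells. In the same class 10 PT marker genes summed to 3346, 2743 and 2858, or 14.4, 11.2 and 9.92% of their level in PT S1/S2-like cells. The part of either in the differences, also gene by gene, was not tested. With RNA of PT cells subtracted in proportion to these PT genes, the log2 ratio of the sum was 0.61.

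**Figure D5:**
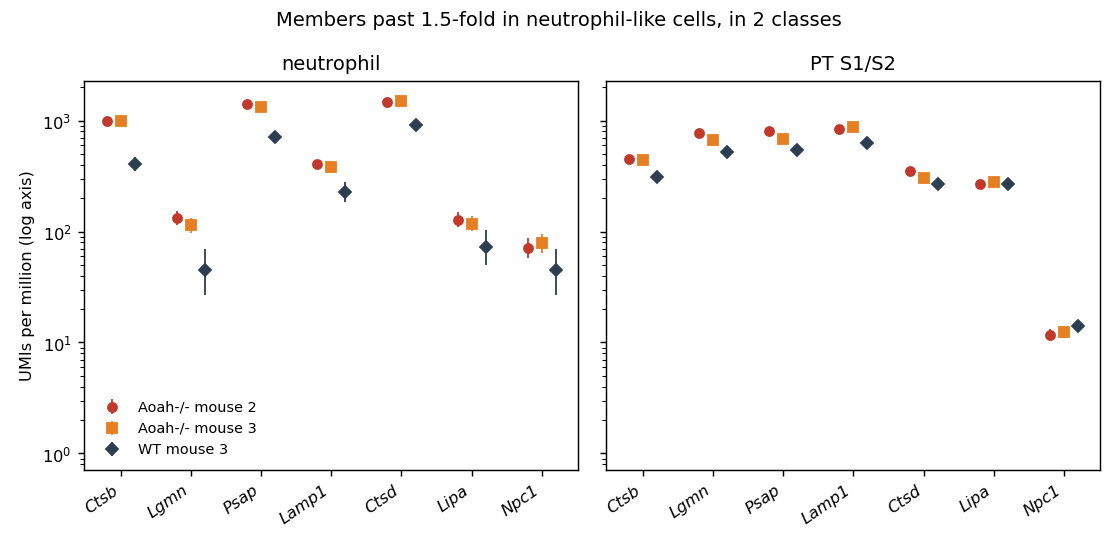
CPM (log axis) of the 7 members past 1.5-fold in neutrophil-like cells, in neutrophil-like cells (left) and PT S1/S2-like cells (right), with 1 point per library and exact Poisson 95% intervals. In neutrophil-like cells both Aoah-/- points of each gene lie above the WT point, by the most for Lgmn and Ctsb. In PT S1/S2-like cells the gaps are smaller for Ctsb, Lgmn, Psap, Lamp1 and Ctsd, nearly absent for Lipa, and Npc1 lies just below WT.

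Neutrophil-like cells fell into 2 subclusters, and the level of the members differed more between these than between genotypes. The subcluster with Il1rn, Ccl3 and Clec4e among its leading genes (378, 303 and 90 cells) had a summed level of 13021, 12610.3 and 8173 CPM, and the one with Retnlg, Csf3r and Cxcr2 (396, 256 and 113 cells) had 5435, 5125 and 4354. Within the former the log2 ratio of Aoah-/- to WT was 0.65 (SD 0.03), and 12 of 30 members were at least 1.5-fold higher, where 14.6% of all genes were. Within the latter it was 0.28 (SD 0.06), and 5 of 28 members were, where 11.1% of all genes were. Ctsb was at 1623, 1545 and 689 in the former and 367, 336 and 177 in the latter, and Lgmn at 173, 151 and 73.1 and 95.1, 69.4 and 21.5, so that both genes were past the fold in both. The WT value of Lgmn rested on 14 UMIs in the former and on fewer in the latter. Psap was at 2268, 1936 and 1024 in the former and 596, 605 and 444 in the latter, and Ctsd at 2155, 2167 and 1212 and 817, 702 and 672. Lipa turned direction, at 203, 177 and 73.1 in the former and 54.97, 46.8 and 73.2 in the latter, where both Aoah-/- libraries lay below WT on 37, 29 and 17 UMIs. The difference between the subclusters was not tested.

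C1q macrophage-like cells had small differences, mostly of one direction. Of 30 members, 25 lay above WT in both Aoah-/- libraries and 0 below, but 61.2% and 17.9% of all genes did so too, and the median log2 ratio was 0.29 over the members and 0.18 over all genes tested. Ctsb was at 1496, 1771 and 1130.0, a log2 ratio of 0.53 (SD 0.17), Psap at 2199.6, 2122 and 1686, a log2 ratio of 0.36 (SD 0.04), and Grn at 412, 423 and 315. Ctsz, Ctsh, Npc2 and Cd68 had log2 ratios between -0.01 and 0.03. The class joined a deep subcluster (611, 808 and 510 cells, median 4216, 4884 and 4106 UMIs) and a shallow one (722, 63 and 968 cells, median 679, 2285 and 688), which Aoah-/- mouse 3 nearly lacked. In the deep subcluster the sum was 14626, 14518 and 13141 CPM and its log2 ratio only 0.15 (SD 0.01), with 24 of 30 members above WT in both libraries where 52.1% of all genes were. In the shallow one, where mitochondrial UMIs were 16.4, 14.7 and 23.6%, the sum was 10795, 11254 and 7524 and the log2 ratio 0.55 (SD 0.04). There 9 of 27 members were at least 1.5-fold higher, where 17.8% of all genes were.

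In PT S1/S2-like cells the differences were mostly small and nearly all of one direction, though not of one size. Of 25 members, 24 lay above WT in both Aoah-/- libraries and 1, Ctsh, below, where 29.1% and 54.7% of all genes did. The median log2 ratio was 0.27 over the members and -0.07 over all genes tested. Hexa was at 80.01, 60.5 and 40.3, a log2 ratio of 0.79 (SD 0.28), just short of the fold in Aoah-/- mouse 3. Ctsb was at 453, 444 and 309.9, a log2 ratio of 0.53 (SD 0.02), and Lamp1 at 844, 866 and 629, a log2 ratio of 0.44 (SD 0.03). Lgmn was at 776, 674 and 517, a log2 ratio of 0.49 (SD 0.14), with no overlap of the Poisson intervals of WT, 508 to 526, and Aoah-/- mouse 3, 664 to 685. Lipa, at 269.7, 281 and 267, and Ctsz, at 173, 176 and 168, differed little. The macrophage members Ctsc, Cd68 and Laptm5 were at the low levels given above, and the C1q genes summed to 27.9, 32.2 and 16.8.

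Here too the class joined 2 subclusters, and each showed a smaller difference than the whole. The one with 917, 724 and 1432 cells had a sum of 7024, 6965 and 6125 and the one with 1990, 1479 and 1197 cells, higher in mitochondrial UMIs (32.6, 30.98 and 30.2% against 17.9, 16.9 and 20.2%), had 9059, 8654 and 7579.6. The log2 ratio was 0.19 (SD 0.01) in the former, with 23 of 26 members above WT in both libraries where 46.8% of all genes were. It was 0.22 (SD 0.05) in the latter, with 21 of 25 members above where 39.5% of all genes were. The subcluster of higher level held most Aoah-/- cells of the class but fewer than the other among WT cells.

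PT cells of no set segment had the lowest sum of the PT cells, 3599, 2919 and 2623, and a log2 ratio of 0.31 (SD 0.21), with the libraries of Aoah-/- mice far apart. No member of 21 was past the fold, where 2.03% and 0.387% of all genes were, and 18 lay above WT in both Aoah-/- libraries and 0 below, where 41.7% and 30.4% of all genes did. Psap was at 308, 204 and 159, Ctsb at 137, 92.7 and 80.2 and Cd63 at 799.9, 687 and 636. Mitochondrial UMIs and depth differed here between libraries, with medians of 19.3, 6.5 and 22.2% and of 960.5, 3386 and 1161.5 UMIs per cell. Their part in the difference was not tested. In the subcluster of it with 696, 368 and 1092 cells, whose depth was alike in the libraries, the sum was 2414, 2492 and 2111 and the log2 ratio 0.22 (SD 0.03).

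PT S3-like cells shared the direction for fewer members. Of 24 members, 15 lay above WT in both Aoah-/- libraries and 4 below, where 28.5% and 48.6% of all genes did. Psap was at 678, 528 and 452, Asah1 at 54.8, 45.9 and 36.2 and Lgmn at 302, 252 and 223. The members below were Lipa, at 139, 125 and 156, Neu1, at 328, 314 and 352, Ctsl, at 539.7, 496 and 557, and Ctsz, at 111, 101 and 117. In injured PT-like cells 13 of 27 members lay above WT in both libraries and 9 below, where 28.0% and 47.1% of all genes did. Lgmn was at 542, 339.5 and 329, with Aoah-/- mouse 3 close to WT, and Ctsh was at 161, 186 and 219, below WT in both.

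Ly6c2 monocyte-like cells showed small differences. Of 29 members, 16 lay above WT in both Aoah-/- libraries and 5 below, where 37.9% and 35.4% of all genes did. Cd63, at 89.7, 82.3 and 58.3, had the highest log2 ratio, 0.55 (SD 0.09), while Ctsb, at 1132, 1085 and 1169.9, and Ctsz, at 553, 562 and 643, lay below WT. In cDC1-like cells 11 of 23 members lay above WT in both Aoah-/- libraries and 3 below, where 45.9% and 26.5% of all genes did. Psap alone was at 3893, 3508 and 2705 CPM in this class, out of sums of 9065, 8774 and 7314. Arsb was at 164, 177 and 79.8 there, a log2 ratio of 1.09 (SD 0.07). Its interval in WT, 54.6 to 113, did not overlap those of the Aoah-/- libraries. Lamp2, at 88.1, 77.9 and 42.4, and Ctsl, at 32.3, 32.3 and 14.96, were also past the fold, the latter on 6 to 17 UMIs per library and both with overlapping intervals. In plasmacytoid dendritic-like cells Cd63 was at 72.7, 90.6 and 32.4 and Glb1 at 25.95, 28.3 and 14.7, above WT, and Lipa at 38.9, 33.97 and 67.7, below it, on 5 to 48 UMIs per library and gene. The intervals of Glb1 and Lipa overlapped, as did those of Cd63 for Aoah-/- mouse 2. In cDC2-like cells no member was past the fold, and Psap was at 2078, 2035 and 1814. There 14 of 30 members lay above WT in both Aoah-/- libraries and 5 below, where 43.4% and 23.2% of all genes did.

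The classes that were too small in a library for a comparison are given as values. Gpnmb macrophage-like sums (22042, 33051 and 22744) were spread between the Aoah-/- libraries, with Aoah-/- mouse 2 just below WT and Aoah-/- mouse 3 far above, and Ctsd there ranged from 2991 to 7435. Peritoneal-like macrophages, nearly all from Aoah-/- mouse 2, had Laptm5 at 2658, 2348 and 1949, Ctsd at 1583, 1889 and 1495 and Psap at 1571, 1688 and 1127. Migratory dendritic-like cells had Psap at 1499.8, 1045 and 367, Npc2 at 1049.9, 951 and 709 and Ctsz at 832, 874 and 668.

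The wider list of 79 further lysosome genes held, among others, the subunits of the proton pump (V-ATPase) that acidifies the organelle. It gave a summed level in neutrophil-like cells of 6669, 7028 and 6017, a log2 ratio of 0.19 (SD 0.05). Of its 46 genes above the filter there, 12 were past 1.5-fold above WT and 0 below, where 9.78% and 2.79% of all genes were. They included Atp6v0d2, a V-ATPase subunit, at 42.95, 47.3 and 4.72, and Naglu, which degrades heparan sulfate, at 34.7, 35.7 and 7.08. Rragd, a GTPase that acts on mTORC1 at the lysosome, was at 31.6, 30.6 and 9.44. The WT neutrophil-like cells held 423667 UMIs in all, so that the WT values of these genes rested on a few UMIs each. Atp6v1c1, another V-ATPase subunit, was at 118, 135 and 51.9. In PT S1/S2-like cells 0 of 53 were past the fold either way, where 1.12% and 0.979% of all genes were. Of these 53, 30 lay above WT in both Aoah-/- libraries and 19 below, where 29.1% and 54.7% of all genes did. The sum of the V-ATPase genes, at 2764, 2746 and 2781, had a log2 ratio of -0.01 (SD 0.01), whereas other glycosidases, lipases, sulfatases and phosphatases had 0.29 (SD 0.03). In C1q macrophage-like cells 1 of 52 was past the fold above WT, Gnptab, which makes the mannose 6-phosphate tag of lysosomal enzymes, at 21.99, 26.99 and 13.2, and 1 below, the aspartic protease Napsa, at 40.7, 30.97 and 69.5, where 3.72% and 0.409% of all genes were. In cDC1-like cells 4 of 38 were past the fold above WT and 1 below, where 10.7% and 1.9% of all genes were. Tfe3, a relative of Tfeb, was at 41.1, 45.6 and 12.5 there, in a class of 55, 61 and 52 cells. The WT cells of that class held 401157 UMIs in all, so that the WT value of Tfe3 rested on a few UMIs.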

How the data were processed

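Single-cell RNA sequencing counts of kidney cells from 2 Aoah-/- mice and 1 WT mouse on day 14 after FA were analysed, 1 library per mouse. The authors deposited raw UMI counts per gene and barcode, which were neither normalized nor pooled. The submitters' processing notes list Cell Ranger 3.1.0, STAR, Seurat 4.2.0 and mm10, whereas the header of the deposited matrices names Cell Ranger 6.1.2; the mice were described as global knock-outs with littermate WT controls.

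Barcodes with fewer than 200 genes or more than 50% mitochondrial UMIs were left out. Cells were clustered together (scanpy 1.11.5, igraph 0.11.9, Python 3.11.15; 2000 variable genes without the members, 50 principal components, 15 neighbours, resolution 1), and myeloid and PT cells again at resolution 0.5, giving 40 clusters, then 18 myeloid and 9 PT subclusters. Names came from marker genes and covered 88.1% of 59262 kept cells. Cells without a name made up 9.58%, 18.7% and 7.30% of the kept cells of the libraries. Among them was a cluster of 34, 1090 and 22 cells with S100a9, S100a8 and C1qb among its leading genes. No doublets were removed.

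UMIs were summed per class and library and given as counts per 1000000 UMIs (CPM). Exact Poisson 95% intervals (scipy 1.17.1) cover counting error only. A gene was compared at a mean of at least 20 CPM and 30 UMIs in all, with 1 CPM added before log2. Since WT had 1 library, no test was run, and a gene counted as past the fold when both Aoah-/- libraries lay 1.5-fold to the same side of WT. Genes named with values were the 3 members with the most UMIs per class, those past the fold (at most 5 each way per class), those 2-fold above the next class, and up to 5 others per class from the wider list. Further members were added to account for all 36 by role. The counting of genes past the fold was tested on simulated counts with planted changes and counting error only. These counts hold no spread between mice, so they cannot show how often an unchanged gene is counted in the real libraries. Members and lists were chosen with earlier results of these data known. Alternatives were other filters, scalings, clusterings, fold limits, left-out libraries and, chosen after seeing the data, each subcluster alone. Promoter windows came from RefSeq (GRCm38.p6). The values of 1 gene of the wider list are not reported here.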

Additional observations from a re-analysis of the deposited data

Results flagged for a closer look

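Lipa, the acid lipase gene, differed in direction between 2 cell classes. Its log2 ratio of Aoah-/- to WT was 0.74 in neutrophil-like cells and -0.88 in plasmacytoid dendritic-like cells, with both Aoah-/- libraries above WT in the former and both below it in the latter. The difference between the classes was not tested. In plasmacytoid dendritic-like cells the values rested on 15, 18 and 23 UMIs. The Poisson intervals of WT and Aoah-/- overlapped there, as did those of WT and Aoah-/- mouse 3 in neutrophil-like cells. Within neutrophil-like cells, Lipa was at 203, 177 and 73.1 CPM (Aoah-/- mouse 2, Aoah-/- mouse 3, WT mouse 3) in the subcluster with Il1rn and Ccl3 among its leading genes. In the other it was at 54.97, 46.8 and 73.2, with both Aoah-/- libraries below WT. The WT value of the former rested on 14 UMIs, and the values of the latter on the low UMI counts given above.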

How the results depend on the processing

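Log2 ratios of the summed level of Aoah-/- to WT kept their direction under every alternative in all compared classes but injured PT-like cells, whose value lay near 0. In plasmacytoid dendritic-like cells they were small throughout, from 0.0033 to 0.083. In neutrophil-like cells (0.60) the ratio was 0.63 with a minimum of 1672 UMIs per cell and 0.61 with at least 500 genes. It was 0.55 at no more than 20% mitochondrial UMIs, 0.55 with mitochondrial UMIs left out of the total and 0.59 as a mean over cells. With members allowed among the clustering genes it was 0.54, and with RNA of PT cells subtracted 0.61. At resolutions of 2 and 1 for the clustering and subclustering together it was 0.57. Without the 10% of cells with the highest Scrublet scores it was 0.75, and in the subclusters of the class 0.28 and 0.65. In C1q macrophage-like cells (0.27) these were, in the same order where the value moved, 0.15, 0.15, 0.19, 0.20, 0.57 and 0.35, and 0.55 and 0.15 in the shallow and deep subclusters. In PT S1/S2-like cells (0.30) it was 0.36 with mitochondrial UMIs left out of the total and 0.19 and 0.22 in the subclusters. As a mean over cells it was 0.23 in cDC1-like, 0.15 in cDC2-like and 0.093 in injured PT-like cells, and at the 2 higher resolutions it was 0.077 in cDC2-like cells. The C1q macrophage-like to PT S1/S2-like ratio (0.78) was 0.86 with the UMI minimum, 0.85 with 500 genes, 0.93 at 20% mitochondrial UMIs, 0.49 with mitochondrial UMIs left out of the total, 0.69 as a mean over cells and 0.67 with members allowed. The count of 12 pairs of a member and a class above WT became 5 at a fold of 2, 23 at 5 CPM and 33 with no filter. It was 22 as a mean over cells, and 17 to 23 without 1 Aoah-/- library. These counts run over all 9 compared classes and are given without a share over all genes. The count of 1 such pair below WT became 0 at a fold of 2, 2 at 5 CPM and 3 with no filter. It was 2 with mitochondrial UMIs left out of the total, 2 at the 2 higher resolutions, and 2 to 3 without 1 Aoah-/- library. For cDC2-like cells, no value could be had with members allowed. The causes of these moves were not tested. No paired analysis was possible because WT had 1 library and the sample titles name no pairs of mice.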
